A study of Arabidopsis thaliana with 12 samples.

Results

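RNA levels of 3 nuclear genes for plastid translation and RNA binding were examined in Arabidopsis thaliana: AT5G65220, for plastid ribosomal protein L29, AT1G01080, for an RNA-binding protein of the chloroplast ribonucleoprotein type, and AT1G12800, for a protein with an S1 RNA-binding domain. They are 3 of 691 genes that had their own probe among the 3439 probes of the array, and each was read from its 1 probe annotated to that gene alone. They were chosen by their measured rise in intensity after MS medium with sucrose relative to water in these same samples, so their differences between the groups are given below as a description, with no test. In the 6 tested samples, wild-type plants of ecotype Wassilevskija had been kept for 6 h in MS medium, the Murashige and Skoog mix of mineral salts used to culture plant tissue, with 60 mM sucrose. The 6 control samples were the same wild type given water, for a time that the labels do not state. The groups therefore differ by the salts and the sugar, and perhaps by time and handling. Samples of both groups carry numbers 1 to 6; the labels do not say what a number stands for or whether each sample came from different plants. The p-values below hence reflect variation among these 12 samples alone, part or all of which may be technical.

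Plastids keep a small genome and translate its mRNAs on ribosomes of the bacterial type, most of whose proteins are encoded in the nucleus and imported. L29 is a protein of the large ribosomal subunit that lies near the exit of the peptide tunnel in bacterial ribosomes. Chloroplast ribonucleoproteins carry a pair of RNA recognition motifs, bind many plastid transcripts and are known for protecting and processing them. The S1 domain is an RNA-binding fold first described in ribosomal protein S1 and found also in ribonucleases. In green tissue this machinery makes the core subunits of the photosystems and the large subunit of Rubisco.

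The deposited values are linear intensities in arbitrary units. Their sample medians ran from 0.309 to 0.339 after MS with sucrose and from 0.171 to 0.188 in water, so most probes were brighter after MS with sucrose. For this reason differences are given on a quantile-normalized log2 scale with a small offset, as MS with sucrose minus water, so each is a change relative to the remaining probes. The labels name no organ; of 9 marker genes of root, seed, flower and green tissue, only the light-harvesting gene LHB1B2 (AT2G34420) had a probe of its own, so the tissue was not checked here. In bulk samples, fewer cells of a type and less RNA per cell cannot be told apart.

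The L29 gene AT5G65220 had intensities of 4.608, 4.324, 5.292, 5.538, 8.348 and 8.197 in samples 1 to 6 of MS with sucrose, against 2.42, 2.013, 1.678, 1.753, 1.936 and 1.857 in water. The lowest sample of MS with sucrose lay above the highest water sample, and samples 5 and 6 of MS with sucrose stood above the other 4. Means were 6.05 ± 1.78 after MS with sucrose and 1.94 ± 0.263 in water (SD, n = 6 each), a ratio of 3.11. On the normalized scale the difference was 1.53 (SE 0.18), or 2.89-fold. The spread was wider after MS with sucrose, with an SD of 29.4% of the mean, against 13.5% in water.

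The ribonucleoprotein gene AT1G01080 had intensities of 2.148, 2.111, 5.283, 5.423, 5.916 and 5.952 in samples 1 to 6 of MS with sucrose, against 0.8306, 0.8015, 1.719, 1.847, 1.306 and 1.47 in water. Samples 1 and 2 were the lowest in both groups. The groups did not overlap, although samples 1 and 2 of MS with sucrose at 2.148 and 2.111 were close to the brightest water sample at 1.847. Means were 4.47 ± 1.83 after MS with sucrose and 1.33 ± 0.44 in water (SD, n = 6 each), a ratio of 3.36, and the normalized difference was 1.43 (SE 0.35). Of the 3 genes it had the widest error, and its level moved with the sample number in both groups.

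The S1-domain gene AT1G12800 had intensities of 3.266, 3.607, 2.025, 2.559, 2.503 and 3.058 in samples 1 to 6 of MS with sucrose, against 0.6822, 0.7571, 0.4814, 0.5552, 0.4633 and 0.5598 in water. Samples 1 and 2 were the highest in both groups, the reverse of AT1G01080, and the groups lay far apart. Means were 2.84 ± 0.579 after MS with sucrose and 0.583 ± 0.115 in water (SD, n = 6 each), a ratio of 4.86. Its normalized difference of 1.86 (SE 0.14), or 3.63-fold, was the largest and the most even of the 3.

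**Figure D1:**
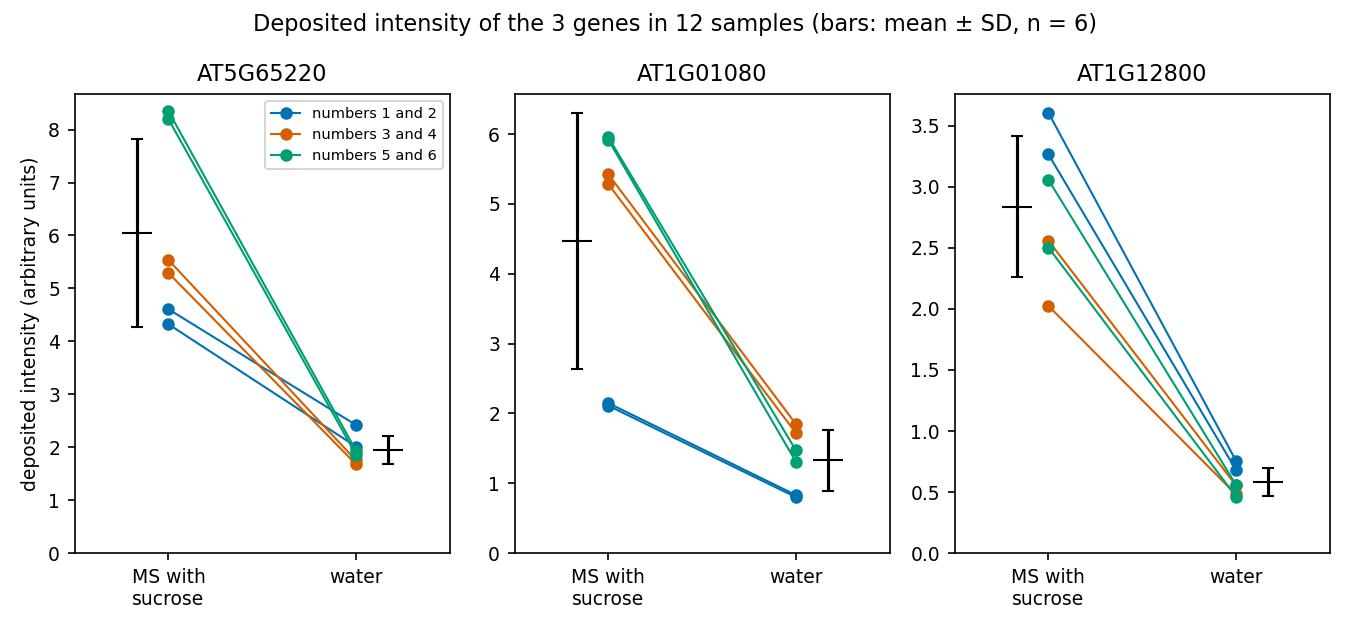
Deposited intensity (arbitrary units, linear axis from 0) of AT5G65220, AT1G01080 and AT1G12800 in 6 samples of MS with sucrose and 6 of water. Points are samples, lines join same-numbered samples, colours mark adjacent numbers, and bars give the mean ± SD (n = 6); points of 1 colour lie close together, and AT1G01080 is low in numbers 1 and 2 of both groups.

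All 3 genes passed the threshold of 0.05 on limma's adjusted p in the higher direction, as did 18.1% of all probes (19.3% were lower, 37.5% either way), and their deposited intensities did not overlap between the groups, as for 29.5% of all probes in that direction. AT1G01080 did not pass with adjacent numbers averaged or without numbers 5 and 6 of both groups. Passing and separation follow from how the genes were chosen, and nothing is read from them. By size of normalized difference, AT1G12800 stood at place 3, AT5G65220 at 10 and AT1G01080 at 12 among the 691 genes. Differences at least as large as that of AT1G01080 were found for 1.6% of all probes. Each gene was also set beside probes of like brightness, which says nothing of RNA amounts, since probes differ. All 3 fell in the brightest decile of probes, whose median difference was -0.07, and 64 of the 691 genes lay in that decile. The 2 genes nearest to AT5G65220 in mean level, XERICO and PRA1.B6, differed by 0.04 and 0.07. Those nearest to AT1G01080 were AT5G36470 at -1.40 and PSAN, for a photosystem I subunit, at -0.24, and those nearest to AT1G12800 were AT2G19280 at -0.95 and AT3G26580 at -0.99. These 6 neighbours lay on both sides of 0, but others of the decile were as high as the 3 genes or higher: among its 64 genes AT1G12800 ranked 2, AT5G65220 5 and AT1G01080 6, and AT4G17650, at 1.70, ranked 4.

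**Figure D2:**
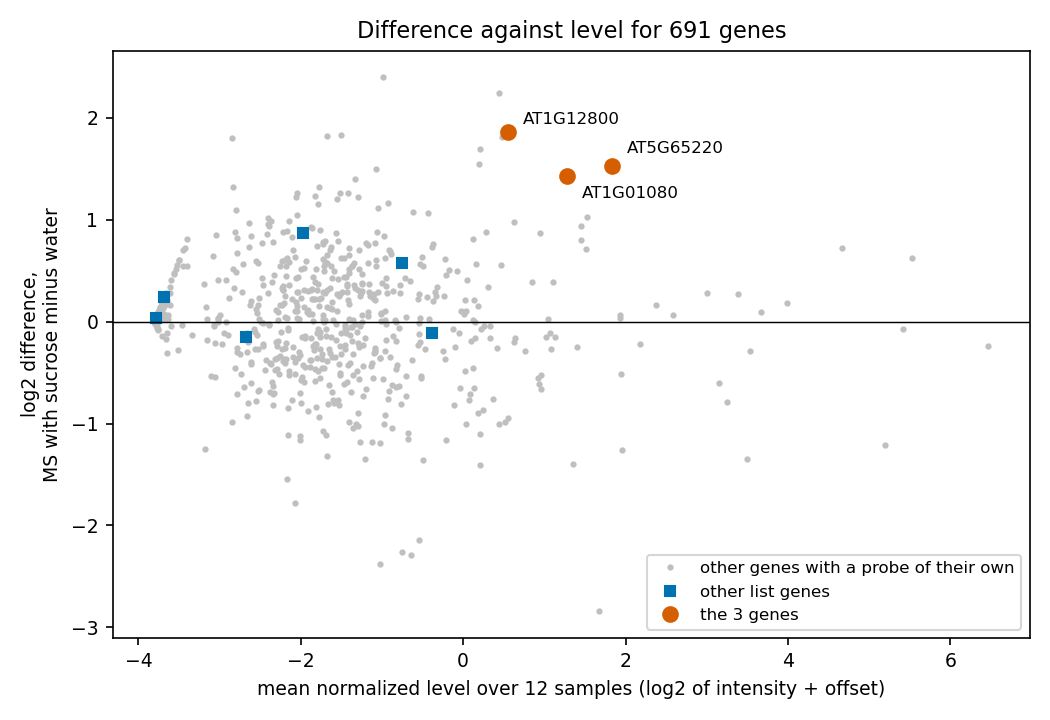
Difference (log2 on the quantile-normalized scale, MS with sucrose minus water) against the mean normalized level over 12 samples for 691 genes. AT5G65220, AT1G01080 and AT1G12800 lie among the brightest probes at differences of 1.53, 1.43 and 1.86; squares are the 6 other genes of the plastid translation and RNA-binding list, from -0.15 to 0.87.

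Within same-numbered pairs AT5G65220 and AT1G01080 ran alike, and AT1G12800 did not follow them. Each of the 3 genes was higher after MS with sucrose in 6 of 6 pairs, a description again, which held for 17.2% of all probes. For AT5G65220 the ratio of intensities, MS with sucrose over water, was 1.9 and 2.15 in pairs 1 and 2, 3.15 and 3.16 in pairs 3 and 4, and 4.31 and 4.41 in pairs 5 and 6. AT1G01080 had ratios of 2.59 and 2.63, then 3.07 and 2.94, then 4.53 and 4.05 in the same pairs. Both genes thus had their smallest ratio in numbers 1 and 2 and their largest in numbers 5 and 6. AT1G12800 had ratios from 4.21 to 5.46 and did not follow that order, with 4.79 and 4.76 in pairs 1 and 2 and its lowest values in pairs 3 and 4.

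Pairing narrowed the spread of 2 of the genes and not that of the third. The SD of the 6 paired log2 differences was 0.43 for AT1G01080 and 0.15 for AT1G12800, where the SDs within the groups would give 0.90 and 0.36 for unpaired samples. For AT5G65220 the paired SD was 0.51, against 0.46 for unpaired samples. Adjacent numbers agreed closely: paired log2 differences of numbers 1 and 2, of 3 and 4, or of 5 and 6 were at most 0.16 apart for AT5G65220, 0.10 for AT1G01080 and 0.21 for AT1G12800. For AT5G65220 the log2 difference averaged 0.99 in numbers 1 and 2, 1.49 in numbers 3 and 4 and 2.12 in numbers 5 and 6. For AT1G01080 the same averages were 0.98, 1.40 and 1.93, close to those of AT5G65220 in every pair of numbers. For AT1G12800 they were 1.91, 1.70 and 1.97.

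**Figure D3:**
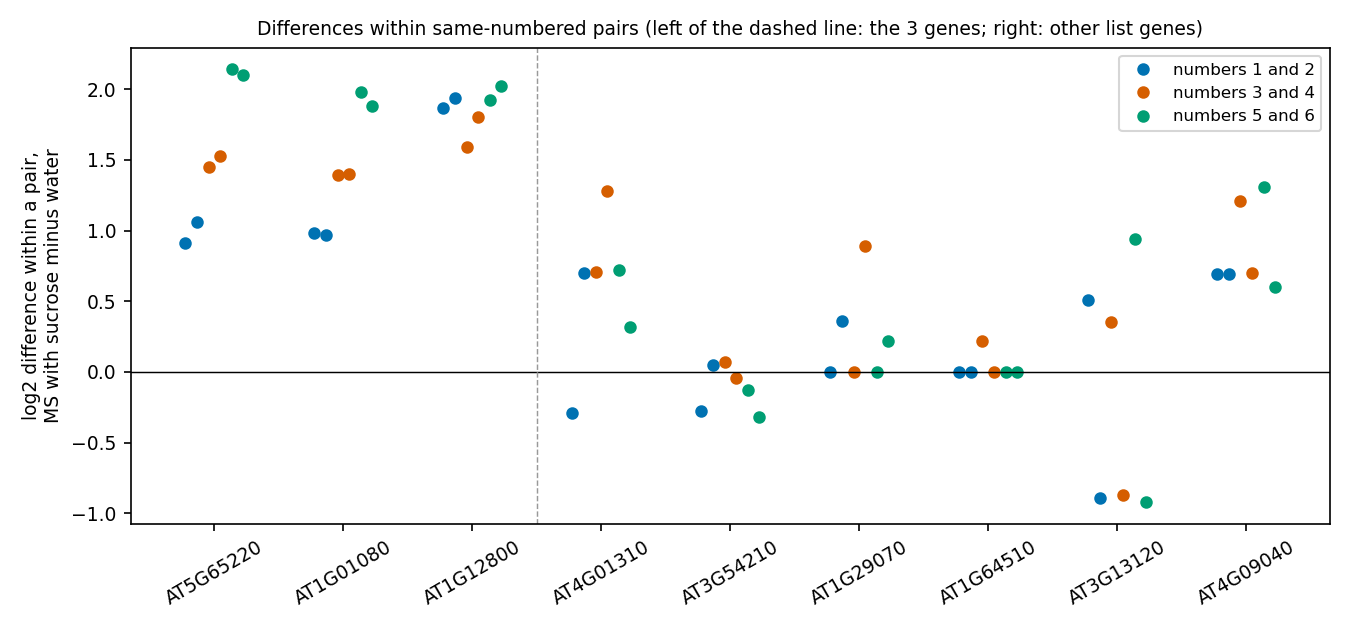
Log2 difference within each same-numbered pair, MS with sucrose minus water on the normalized scale, for AT5G65220, AT1G01080, AT1G12800 (left of the dashed line) and 6 other genes of the plastid translation and RNA-binding list. Each point is 1 pair, coloured by adjacent numbers; AT5G65220 and AT1G01080 lie in steps from about 1 in numbers 1 and 2 to about 2 in numbers 5 and 6, and AT3G13120 alternates between positive and negative values.

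The size of the difference was also set against the gap between adjacent numbers across the whole array. Grouping numbers 1 and 2, 3 and 4, and 5 and 6 was decided after the values of these genes were seen and is not in the labels, and the gap between adjacent numbers may be technical, so what follows is a description and not a test over independent samples. In a limma fit with a separate group difference for each pair of adjacent numbers, the F value for their variation was 58.6 for AT5G65220, 64.3 for AT1G01080 and 0.902 for AT1G12800. The first 2 are among the 4.59% of all probes, and the 35 of 691 genes, at an adjusted p under 0.05 in that fit. The order shared by AT5G65220 and AT1G01080, smallest in numbers 1 and 2 and largest in numbers 5 and 6, was found in 5 of those 35 and in 548 of all 3439 probes, so the order itself is no result about these genes. None of the 6 other list genes was among the 35. A difference between the 3 genes in this variation was not tested.

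The level itself, taken over both groups, was set against adjacent numbers too, again as a description. The F value was 33.8 for AT1G01080, 9.66 for AT1G12800 and 2.5 for AT5G65220. AT1G01080 is among the 6.63% of all probes at an adjusted p under 0.05 in this fit. AT1G12800 and AT5G65220 are not, though AT1G12800 was near the threshold (adjusted p = 0.0641 by limma) and passed it under some other settings. The intensity of AT1G01080 averaged 2.13, 5.35 and 5.93 in numbers 1 and 2, 3 and 4, and 5 and 6 of MS with sucrose, against 0.816, 1.78 and 1.39 in water. AT5G65220 averaged 4.47, 5.41 and 8.27 after MS with sucrose, against 2.22, 1.72 and 1.9 in water, where the order was not the same. AT1G12800 averaged 3.44, 2.29 and 2.78 after MS with sucrose, against 0.72, 0.518 and 0.512 in water. What distinguishes the numbers is not stated, and whether it bears on these levels was not tested.

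Within the groups the 3 genes did not all vary together. Deviations from the group means over the 12 samples correlated at 0.51 between AT5G65220 and AT1G01080, at -0.21 between AT5G65220 and AT1G12800 and at -0.73 between AT1G01080 and AT1G12800. These are descriptions, since adjacent numbers may not be independent. Over the 12 normalized values, Pearson correlations with 573 genes above 0 in at least 10 samples were then ranked for each gene; because the samples form 2 groups, such values mostly follow the group difference. The pattern of AT5G65220 was closest to AT4G17650 (0.978), then AT5G02710 (0.946) and AT3G32930 (0.945). AT4G17650 averaged 2.14 ± 0.435 after MS with sucrose and 0.449 ± 0.022 in water (SD, n = 6 each), and the deviations of these 3 genes within groups correlated with those of AT5G65220 at 0.87, 0.73 and 0.45. AT1G01080 was most like AT3G04560 (0.925), AT3G56290 (0.909) and AT4G23110 (0.880), with deviations correlated at 0.80, 0.75 and 0.70. Nearest to AT1G12800 were AT3G06200 (0.982), AT4G16410 (0.976) and, as for AT5G65220, AT3G32930 (0.976), with deviations correlated at 0.66, 0.61 and 0.58. None of the 3 genes was among the closest of another.

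Other genes of plastid translation and RNA binding gave few values. Of 67 further genes listed by function, 6 had such a probe: 1 rose, 0 fell and 5 did not pass, with a median difference of 0.14. Among all 691 genes 138 rose, 118 fell and 435 did not pass, with a median of 0.02, so the list is too short to read against that share. Roles of these 6 genes come from general knowledge, since the tables give only identifiers. Plastid translation factors and further S1-domain proteins had no such probe.

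The 1 that rose was AT4G09040, for another RNA recognition motif protein listed with the chloroplast ribonucleoproteins. Its intensities were 0.3204, 0.4321, 0.3647, 0.3144, 0.4658 and 0.3122 in samples 1 to 6 of MS with sucrose, against 0.09116, 0.1282, 0.06114, 0.08697, 0.07099 and 0.09628 in water. The groups did not overlap, and the difference was 0.87 (SE 0.14, adjusted p = 0.000466 by limma), higher in 6 of 6 pairs. The ratio of mean intensities was 4.13, and the normalized difference, which carries the offset and the quantile normalization, corresponds to 1.82-fold. With the same offset and no scaling, the log2 difference was 1.45.

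Among 3 further genes of the large plastid ribosomal subunit none passed. AT4G01310, for L5, had intensities of 0.3622, 0.8942, 0.849, 1.095, 0.9998 and 0.7717 in samples 1 to 6 of MS with sucrose, against 0.2606, 0.3153, 0.2989, 0.2653, 0.3741 and 0.3882 in water. Sample 1 of MS with sucrose lay inside the range of water and the other 5 above it. The difference was 0.57 (SE 0.22, adjusted p = 0.0634 by limma), and without that sample it was 0.79 and passed (adjusted p = 0.00044 by limma). It also passed without scaling, with cyclic loess, with zeros missing, without dim probes, with robust eBayes and with numbers 1 and 2 left out (adjusted p from 0.000757 to 0.0472 by limma). AT3G54210, for L17, averaged 0.823 ± 0.0825 after MS with sucrose and 0.6 ± 0.07 in water (SD, n = 6 each). Its deposited intensities did not overlap and were higher after MS with sucrose, yet its normalized difference was -0.11 (SE 0.08, adjusted p = 0.308 by limma). Without scaling, its log2 difference with the offset was 0.42, where the median of all probes was at 0.38. Under median centring it was at -0.25, where that median was at -0.29, which is the same comparison by construction. AT1G29070, for L34, was listed at 0 in 3 of 6 samples of MS with sucrose, where it reached no more than 0.0812, and in 6 of 6 samples of water.

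Of 2 genes of the small plastid ribosomal subunit, AT1G64510, for S6, was listed at 0 in all samples except sample 3 of MS with sucrose, at 0.0206. AT3G13120, for S10, was at 0.2089, 0.03263, 0.2379, 0.02743, 0.2357 and 0.02284 in samples 1 to 6 of MS with sucrose, against 0.06999, 0.0871, 0.08812, 0.06745, 0.04443 and 0.0749 in water. After MS with sucrose its odd-numbered samples lay above every water sample and its even-numbered samples below every one, so that the mean difference of -0.15 (SE 0.31, adjusted p = 0.754 by limma) describes neither. Of the 6 plastid ribosomal protein genes read here, the L29 gene alone passed in the fit of all 12 samples described above, and it was chosen for that. Under other settings L5 passed too. L17 passed as higher without scaling and as lower under median centring, where S6 passed as lower as well.

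The sizes for AT5G65220, AT1G01080 and AT1G12800 depended on the scale more than on any single sample. Those of AT5G65220 and AT1G01080 depended also on which adjacent numbers were used. Without scaling they were 1.56, 1.63 and 2.14, with cyclic loess 1.55, 1.54 and 1.91, and with each sample centred on its median 0.90, 0.96 and 1.47. Set against the median of all probes under the same scaling, AT5G65220 lay 1.18 above it both without scaling and under median centring, AT1G01080 1.25 and AT1G12800 1.76. These 2 settings give the same value by construction, since median centring shifts all probes of a sample alike. AT1G12800 had the largest of the 3 differences under each of these scalings, while AT5G65220 and AT1G01080 changed places. Leaving out 1 sample at a time gave 1.42 to 1.63 for AT5G65220, 1.32 to 1.65 for AT1G01080 and 1.78 to 1.97 for AT1G12800. This keeps the adjacent number in the fit, which lay close for these genes. Averages over adjacent numbers ran from 0.99 to 2.12 for AT5G65220, 0.98 to 1.93 for AT1G01080 and 1.70 to 1.97 for AT1G12800. For AT5G65220 and AT1G01080 these ranges were wider than those over the scalings.

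**Figure D4:**
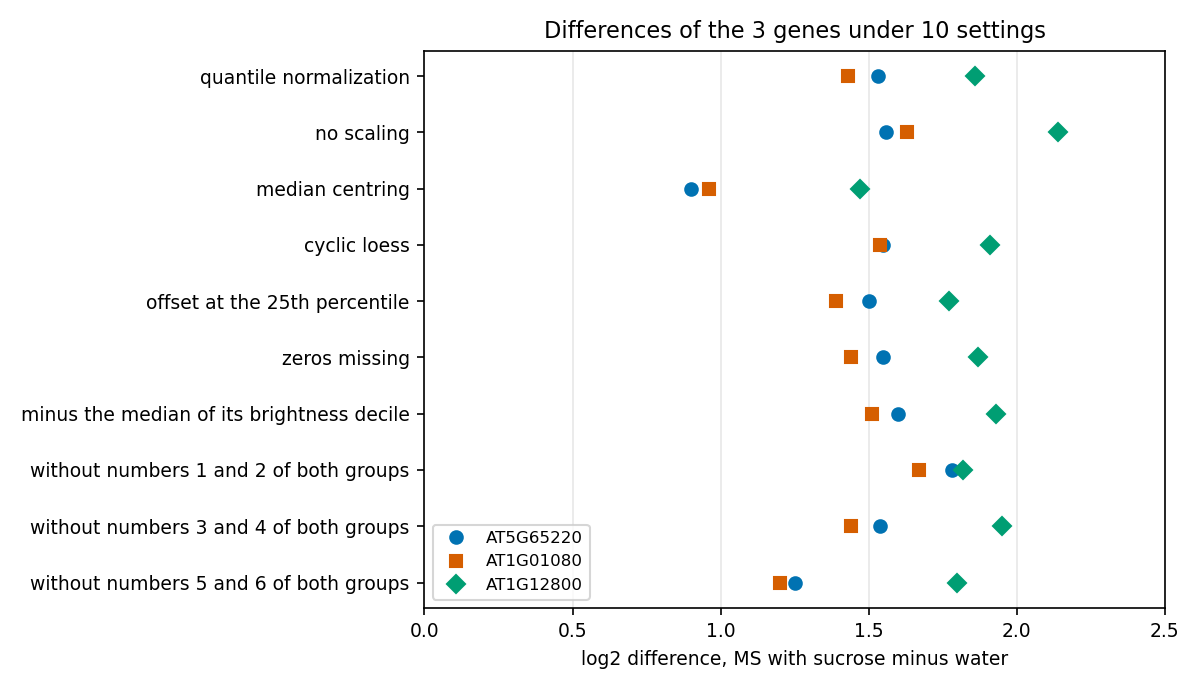
Log2 difference, MS with sucrose minus water, of AT5G65220, AT1G01080 and AT1G12800 under 10 settings of scaling, offset, zeros, brightness and left-out numbers. All points lie above 0, from 0.90 for AT5G65220 under median centring to 2.14 for AT1G12800 without scaling, and AT1G12800 has the largest difference in each row.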

How the data were processed

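RNA of 12 samples, 6 of MS with sucrose and 6 of water, was measured on 3439 probes. The deposited table holds linear intensities, with 13.6% of values at exactly 0 and 2 to 8 probes per sample at a ceiling of 100. What the authors did about background and scaling, and which array and scanner they used, was not given in the sources used here. Errors given here are computed over the 12 arrays, and how many independent plants these stand for is not stated. Probes were named through the platform annotation and the TAIR10.1 gene table: 692 probes list 1 gene and 870 list several, while 1877 carry no name here. The 2 probes that list a member together with another gene were not used.

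Values were used as log2(intensity + 0.0718), the offset being the 10th percentile of values above 0, quantile normalized because sample medians lay 0.758 apart, and fitted with limma 3.58.1 (trend, two-sided, Benjamini-Hochberg over 3439 probes, threshold 0.05) in R 4.3.3. In simulated data with 200 of 3439 probes changed, this fit found 82% of log2 changes of 1 and 37.1% of changes of 0.5. There, 6.02% of its calls were false. The simulated samples were drawn independently. Here adjacent numbers lay close together for AT5G65220, AT1G01080 and AT1G12800, and over all probes adjacent numbers correlated to the degree given below. These rates hence need not hold for these data. Same-numbered samples were taken as pairs, which the labels do not state. Their deviations correlated at 0.174 to 0.39 in 6 of 6 pairs. Adjacent numbers within a group correlated too, at 0.133 to 0.157 after MS with sucrose and 0.121 to 0.309 in water. Samples of different numbers were not compared across the groups, so whether the number itself pairs them was not tested. Genes named are the 3 members, every list gene with a probe of its own, and for each member the 3 most correlated genes and the 2 nearest in level. Members and lists were chosen with earlier results of these data known. Alternatives were other scalings, offset, zeros missing, dim probes left out, a block for the number, eBayes without trend or robust, adjacent numbers averaged and samples left out.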

Additional observations from a re-analysis of the deposited data

Results flagged for a closer look

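Among 44 sets of 6 deposited intensities, 3 held a single value well apart from the rest. About 2.2 would be expected by chance (1 in 20) if the 6 values were independent, which adjacent numbers may not be. None of the 3 was a set of AT5G65220, AT1G01080 or AT1G12800. This says little, since adjacent numbers that stand apart together are not flagged. For AT1G64510, sample 3 of MS with sucrose was the only one above 0, which makes its gap the whole range (1). AT1G29070 was highest in sample 4 of MS with sucrose, at a gap of 0.745 of the range, and AT2G19280 in water sample 2, at 0.63 of the range.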

How the results depend on the processing

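AT5G65220, AT1G01080 and AT1G12800 kept a positive difference under every alternative run. Moves beyond the spread within groups were those of AT5G65220 under median centring (0.90), within numbers 1 and 2 (0.99) and within numbers 5 and 6 (2.12), and of AT1G12800 without scaling (2.14) and under median centring (1.47). That spread was 0.64 for AT1G01080, against 0.32 for AT5G65220 and 0.25 for AT1G12800. AT1G01080 at 0.96 under median centring, 0.98 within numbers 1 and 2 and 1.93 within 5 and 6 hence did not count. Past the threshold were all 3 except with adjacent numbers averaged or without numbers 5 and 6 of both groups, when 2 were and AT1G01080 was not. With the number as a replicate block the differences stayed at 1.53, 1.43 and 1.86 and 1316 probes were called, against 1289, and no call of the genes named from the list changed. Called probes were 1519 higher and 237 lower without scaling, 487 higher and 1271 lower under median centring, and 751 in all (349 higher, 402 lower) with adjacent numbers averaged; without 1 sample they were 1138 to 1283 (544 to 619 higher, 589 to 673 lower). Of the 6 other list genes, 3 were called higher without scaling, and 2 with cyclic loess, zeros missing, dim probes left out, robust eBayes or numbers 1 and 2 left out, and 1 to 2 without 1 sample, AT4G01310 being added each time and AT3G54210 also without scaling; 2 were called lower under median centring. AT3G54210 turned to 0.42 without scaling, and AT1G64510, at 0 in 11 samples, to -0.61 under median centring, which moves a probe with no signal down. Probes past the threshold for a difference that varies between adjacent numbers were 104 without dim probes, against 158. For level, AT1G12800 joined AT1G01080 past it without scaling, under median centring and without dim probes (adjusted p = 0.0395, 0.0265 and 0.0462 by limma, against 0.0641). The share of all probes past it is given only for the quantile-normalized values of all probes, at 6.63%, so nothing is read from these calls. The cause of these changes was not tested otherwise. No member has another probe of its own, so that alternative was not run, and genes at 0 in a group have no value with zeros missing. What the exact 0 and the ceiling stand for is unknown, which limits dim genes such as AT1G29070 and AT1G64510.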

Other observations

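The alternation of AT3G13120 with the sample number was rare. In MS with sucrose, 3 of 3439 probes had all 3 odd-numbered samples above all 3 even-numbered ones by at least 1 on the log2 scale of intensity plus offset, and 0 had the reverse. In water 0 probes had either. The search was made after the values of AT3G13120 were seen, and none of AT5G65220, AT1G01080 and AT1G12800 showed it.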
